A study of Homo sapiens with 6 samples.

Results

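Genes that make leukotrienes, lipoxins and prostanoids were followed in THP-1 macrophages, a human monocytic leukaemia line, in which a long noncoding RNA had been targeted. The members were listed by name for their place in the pathway, and 9 of the 10 listed genes were found among the 17042 genes with counts: ALOX15, ALOX5, ALOX5AP, LTA4H, LTC4S, PTGS1, PTGS2, TBXAS1 and PLA2G4A. PTGES, the inducible prostaglandin E synthase, was not analysed here. All 9 passed the filter on low counts. The 3 control libraries and the 3 knockdown libraries came from one cell line, all treated with the phorbol ester PMA (100 ng/mL, 24 hours) and then with interleukin-4 (IL-4, 20 ng/mL, 24 hours). In the knockdown cells a small interfering RNA against RP11-184M15.1 had been delivered with a lipid reagent before IL-4. The labels give the control cells as wild type and do not say whether they received a control RNA. Every cell here had IL-4, so induction by IL-4 itself was not measured.

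Eicosanoids are signalling lipids made from arachidonic acid, which cytosolic phospholipase A2 cuts out of membrane phospholipid. Lipoxygenases turn it into hydroxy acids, leukotrienes and lipoxins, and cyclooxygenases turn it into prostaglandin H2, the parent of prostaglandins and thromboxane. In human monocytes and macrophages IL-4 is a classical inducer of the 15-lipoxygenase gene ALOX15, and inflammatory stimuli are classical inducers of the cyclooxygenase gene PTGS2, whereas PTGS1 is the constitutive cyclooxygenase.

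Per kilobase of merged exons, PTGS1 had the highest mean level of the 9 genes and PTGS2 the lowest, although the range of PTGS2 overlapped that of LTC4S, which was lowest in CPM (counts scaled to a common library size). The 250 bases before the RefSeq start sites of both cyclooxygenase genes (GRCh38.p14) are shown for that contrast. PTGS2 lies on chromosome 1, minus strand (chr1:186680424-186680673), and PTGS1 on chromosome 9, plus strand, with 2 start sites in RefSeq (chr9:122370283-122370532 and chr9:122375052-122375301). Capitals mark matches on either strand to a TATA box core (TATAAA), a C/EBP-type site (TTACGCAA), the core of the cyclic AMP response element (TGACG) and the GC box (GGGCGG). None of the marked matches overlaps another.
PTGS2: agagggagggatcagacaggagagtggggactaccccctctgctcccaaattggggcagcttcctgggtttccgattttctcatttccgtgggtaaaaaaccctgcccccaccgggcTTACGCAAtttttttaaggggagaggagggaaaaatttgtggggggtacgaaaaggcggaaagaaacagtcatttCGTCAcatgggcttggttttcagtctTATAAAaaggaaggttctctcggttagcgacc
PTGS1 upstream start: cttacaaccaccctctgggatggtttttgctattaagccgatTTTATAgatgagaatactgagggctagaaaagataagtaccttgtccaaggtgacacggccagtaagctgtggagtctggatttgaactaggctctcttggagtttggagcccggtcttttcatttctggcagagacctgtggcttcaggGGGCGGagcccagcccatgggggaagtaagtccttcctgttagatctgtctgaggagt
PTGS1 downstream start: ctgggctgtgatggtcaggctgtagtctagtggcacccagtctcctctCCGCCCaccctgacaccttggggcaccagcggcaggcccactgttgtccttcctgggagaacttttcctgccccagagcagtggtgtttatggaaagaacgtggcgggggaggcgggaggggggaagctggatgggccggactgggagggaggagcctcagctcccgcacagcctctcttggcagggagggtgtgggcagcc
In PTGS2, TATAAA stood 32 to 27 bases before the start (positions -32 to -27), TTACGCAA at -133 to -126, and TGACG on the opposite strand at -58 to -54. The upstream PTGS1 window held GGGCGG at -58 to -53 and TATAAA on the opposite strand at -208 to -203, and the downstream window held only GGGCGG, on the opposite strand at -202 to -197. Among 35116 windows of this length, 10.7% held TATAAA, 0.148% TTACGCAA, 21.2% TGACG and 42.6% GGGCGG. Windows of 8 of the 10 listed genes were found, 9 windows in all, and those of ALOX15 and ALOX5 were not analysed here. Of the 9 windows, 3 held TATAAA, that of TBXAS1 besides PTGS2 and PTGS1. In TBXAS1 it stood at -140 to -135 and, on the opposite strand, at -43 to -38. That window starts at 139829014, within the GENCODE span of the gene (139777051 to 140020325). GGGCGG was in 4, those of LTC4S and PTGES besides both of PTGS1. TTACGCAA and TGACG were in 1 each, that of PTGS2. The STAT6-type motif, TTC and GAA with any 4 bases between them, occurred in none of the 9 windows and in 5.38% of all windows. A match is a description of these letters, and its use in these cells was not measured.

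Library totals ran from 10450043 to 14181343 counts. No gene carries the name RP11-184M15.1, so the targeted RNA could not be checked under that name. AC078850.1, the gene with the smallest p of all, had 2106, 1962 and 1664 counts in controls against 335, 355 and 353 in knockdown. The sources used here do not say whether it is the targeted RNA. Mitochondrially encoded genes took 2.31% to 3.01% of counts in the controls and 2.39% to 2.48% in knockdown. Of 10 macrophage markers measured, 3 rose (1 without control replicate 2 or knockdown replicate 2) and 1 fell. That is 40.0% of the list against 2.83% of the 13405 genes tested. These markers were listed with earlier results of these data known, so the share is a description and no test. Their summed level ran from 6866 to 7133 CPM in controls and from 6862 to 7353 CPM in knockdown. The progenitor list had no call among 5 tested, with summed levels of 83.3 to 91.9 CPM against 75.7 to 82.4 CPM. Other cell types that make eicosanoids were at low levels: 3 mast cell or basophil markers summed to 7.37 to 8.60 CPM in controls and 6.24 to 7.94 CPM in knockdown, and 3 eosinophil or neutrophil markers to 15.5 to 17.8 CPM and 15.9 to 18.6 CPM. The defining markers CPA3, MS4A2, HDC, CLC, EPX and CCR3 were not analysed here. Summed levels of T or NK cell, B cell, fibroblast, epithelial and platelet markers were at most 8.56 CPM in any library. The part of any of these in the members' values was not tested.

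None of the 9 genes passed an adjusted p of 0.05 between knockdown and control in edgeR's quasi-likelihood test, against 2.83% of the 13405 genes tested (1.22% higher and 1.61% lower). DESeq2 and limma-voom called none of the 9 either, and 1 of the 9, ALOX5, had an unadjusted p under 0.05, against 2025 of all 13405 genes. The fitted log2 fold changes ran from -0.32 (LTC4S) to 0.21 (ALOX5), with a median of -0.04, beside -0.0019 over all genes. In ALOX15 and ALOX5 the 3 knockdown libraries lay apart from the 3 controls, 2 of 9 genes, where 20.0% of all genes did (9.61% higher and 10.4% lower in knockdown). The labels do not say that replicates came from separate cultures, and the p-values may reflect only technical spread among libraries. In bulk RNA a change in the share of cells that make a transcript and a change of its level per cell cannot be told apart.

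**Figure D1:**
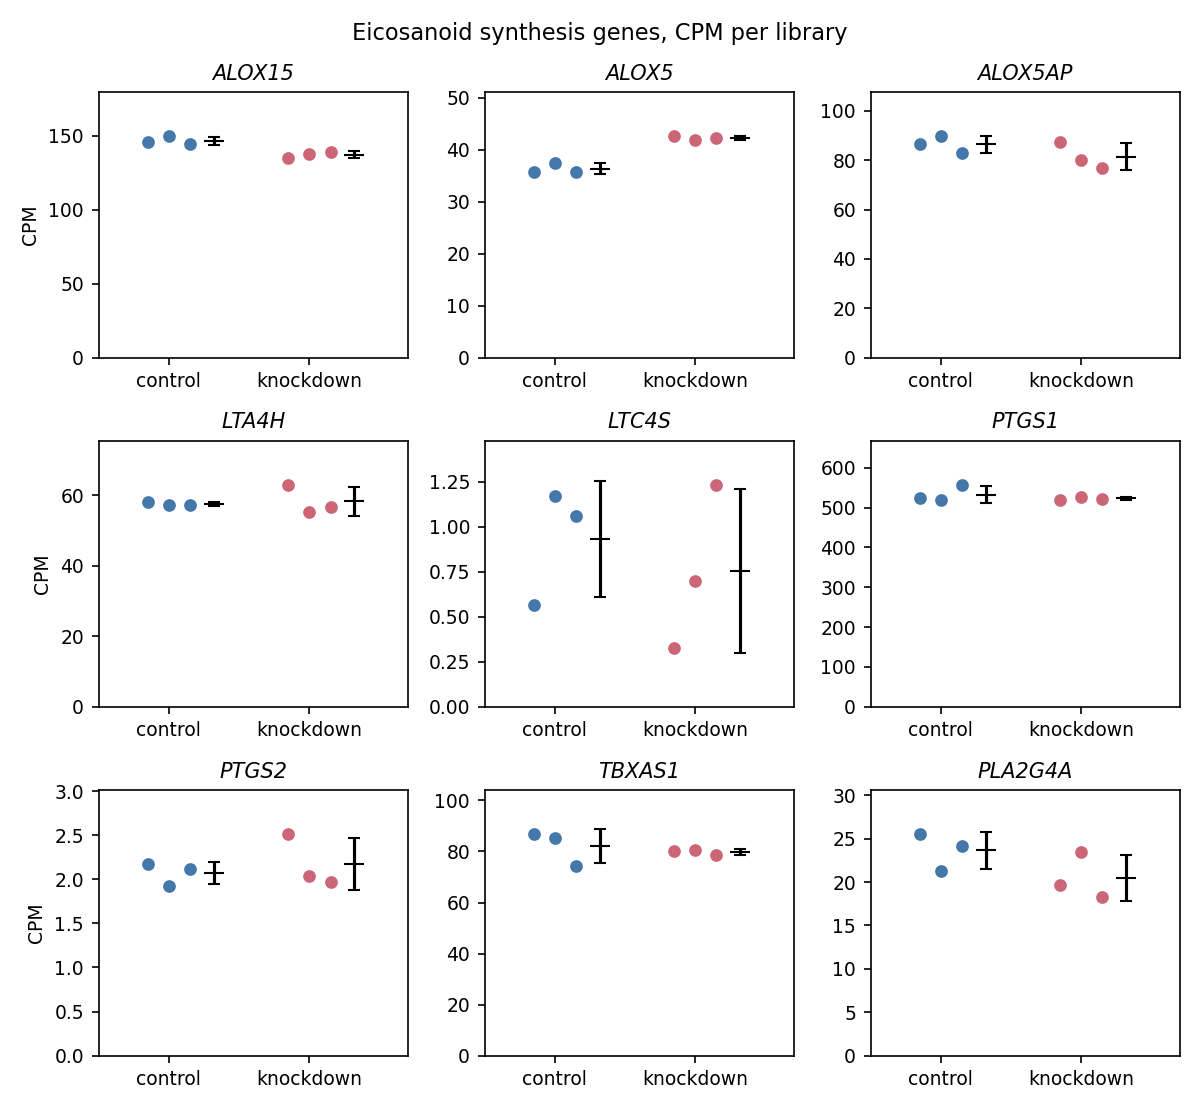
CPM of each of the 9 genes in the 3 control and 3 knockdown libraries, one point a library, with the group mean and SD as bars; each axis starts at 0. In ALOX5 the knockdown points (41.9 to 42.6 CPM) lie above the controls (35.8 to 37.5 CPM), in ALOX15 slightly below, and in the other 7 genes the groups overlap.

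ALOX15 makes 15-hydroxy acids from arachidonic acid and feeds lipoxin synthesis (ENSG00000161905.12, chromosome 17, 4630902 to 4642294, minus strand, GENCODE 29 on GRCh38). It stood at 146, 150 and 144 CPM in the control libraries and at 135, 138 and 139 CPM in knockdown. Every knockdown library lay below every control, by a small step: means were 147 ± 2.80 and 137 ± 2.12 CPM (SD, n = 3 each). The log2 fold change was -0.09 ± 0.04 (SE), with a 95% interval from -0.19 to 0.00095 and an edgeR adjusted p of 0.337. As folds, that interval runs from 0.876 to 1.00.

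Of 21 IL-4 response genes tested in the same fit, 5 fell and 1 rose, 28.6% against 2.83% of all genes. The list's median log2 fold change was -0.10. The list was chosen with earlier results of these data known, so its share is a description and no test. The other genes of the list did not pass the threshold. Among them were the IL-4 receptor chain gene IL4R (-0.07), its transcription factor STAT6 (-0.06) and the feedback inhibitor SOCS1 (-0.10). FCER2 (0.34) and CD209 (0.18), named after their values were seen, were above 0 and also not called. Of the 21 log2 fold changes, 7 lay above 0 and 14 below. CCL22, an IL-4-induced chemokine, had means of 1029 ± 120 and 658 ± 4.48 CPM (SD, n = 3 each) and a log2 fold change of -0.65, with an interval from -0.78 to -0.51. CCL17, which shares its receptor, had -0.51 (-0.62 to -0.40). The intervals of both chemokines lay wholly below that of ALOX15, while the difference between the genes was not tested. CCL26 (-0.79), FABP4 (-0.37) and TGM2 (-0.18) were the other members of the list that fell, and CD1E (0.58) rose. The intervals of CCL26 (-1.18 to -0.40) and FABP4 (-0.53 to -0.20) also lay below that of ALOX15. The TGM2 interval (-0.27 to -0.08) overlapped it. With 1 library left out 2 to 7 fell and 0 to 3 rose: CCL22 and CCL17 passed each time, while 2 fell when control replicate 2 or either of knockdown replicates 1 and 2 was left out, and none rose without knockdown replicate 2 or 3. DESeq2 called 3 that fell and gave no adjusted p for CCL26. TGM2 had an edgeR adjusted p of 0.0502 with RLE and 0.0584 with upper-quartile factors. For FABP4 the highest adjusted p among the alternative fits with all 6 libraries was 0.101.

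ALOX5, the 5-lipoxygenase that starts leukotriene synthesis, had the smallest p of the 9 genes (ENSG00000012779.10, chromosome 10, 45374176 to 45446119, plus strand). Its level was 35.8, 37.5 and 35.8 CPM in the controls and 42.6, 41.9 and 42.3 CPM in knockdown. All 3 knockdown libraries were above all 3 controls, and the spread within each group was small, with means of 36.4 ± 0.992 and 42.3 ± 0.364 CPM (SD, n = 3 each). The log2 fold change was 0.21 ± 0.06 (SE; interval 0.08 to 0.35), a fold of 1.16, with an unadjusted p of 0.00336 and an adjusted p of 0.0823 in edgeR over all genes. It therefore missed the threshold, and it ranked 548 by p among all genes tested. The alternative fits gave adjusted p from 0.0786 to 0.243. An annotated antisense gene, AL731567.1, overlaps ALOX5 on the opposite strand, and no source states whether counting kept the strand.

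ALOX5AP encodes FLAP, the membrane protein that presents arachidonic acid to 5-lipoxygenase (chromosome 13, 30713478 to 30764426, plus strand). Its values were 86.4, 89.7 and 83.1 CPM in controls and 87.5, 80.0 and 76.9 CPM in knockdown. The groups overlapped: knockdown replicate 1 lay among the controls and the other two below them. The log2 fold change was -0.09 (interval -0.21 to 0.04; edgeR adjusted p = 0.536).

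LTA4H, the hydrolase that makes leukotriene B4 (chromosome 12, 96000828 to 96043520, minus strand), was nearly level over the libraries. Controls had 58.0, 57.1 and 57.2 CPM and knockdown libraries 62.8, 55.1 and 56.7 CPM, with knockdown replicate 1 the highest of the 6. The log2 fold change was 0.02 (interval -0.11 to 0.15; edgeR adjusted p = 0.932). Antisense genes AC007298.1 and AC007298.2 overlap it.

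LTC4S, the synthase that conjugates glutathione to make leukotriene C4 (chromosome 5, 179793980 to 179796647, plus strand), was barely present. It had 6, 14 and 11 counts in the control libraries and 4, 10 and 15 counts in knockdown, or 0.567, 1.17 and 1.06 CPM against 0.324, 0.701 and 1.23 CPM. With the groups overlapping and so few counts, its log2 fold change of -0.32 had an interval from -1.30 to 0.65 (edgeR adjusted p = 0.809). A change of more than 1.5-fold in either direction lies within that interval, so depth limits what can be said of this gene.

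PTGS1, the constitutive cyclooxygenase, was the most abundant member (ENSG00000095303.15, chromosome 9, 122370530 to 122395703, plus strand). It stood at 523, 518 and 556 CPM in controls and at 519, 527 and 522 CPM in knockdown, from 5537 to 7519 counts a library. Control replicate 3 was the highest of the 6 and the remaining 5 lay within a few percent of each other. The log2 fold change of -0.03 ± 0.04 (SE) had an interval from -0.12 to 0.07 (edgeR adjusted p = 0.836), folds of 0.921 to 1.05. The sense-intronic gene AL162424.1 within it had at most 10 counts a library.

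PTGS2, the inducible cyclooxygenase (chromosome 1, 186671791 to 186680427, minus strand), had 23, 23 and 22 counts in controls and 31, 29 and 24 in knockdown. These came to 2.17, 1.93 and 2.12 CPM and to 2.51, 2.03 and 1.97 CPM. The groups overlapped, with knockdown replicate 1 the highest. Its log2 fold change of 0.07 had an interval from -0.46 to 0.60 (edgeR adjusted p = 0.937), far wider than that of PTGS1.

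TBXAS1, thromboxane A synthase (chromosome 7, 139777051 to 140020325, plus strand), acts on prostaglandin H2. It had 86.7, 85.2 and 74.4 CPM in controls and 80.0, 80.6 and 78.6 CPM in knockdown. Control replicate 3 was the lowest of all and the other controls the highest, so the groups overlapped, and the log2 fold change was -0.04 (interval -0.17 to 0.08; edgeR adjusted p = 0.804). HIPK2, a kinase gene on the opposite strand, overlaps it and was itself not called (log2 fold change 0.05).

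PLA2G4A, cytosolic phospholipase A2 alpha, releases the arachidonic acid (ENSG00000116711.9, chromosome 1, 186828953 to 186988981, plus strand). Controls had 25.5, 21.3 and 24.2 CPM and knockdown libraries 19.7, 23.4 and 18.3 CPM. Knockdown replicate 2 lay among the controls and the other two below all of them. The log2 fold change was -0.20 ± 0.10 (SE; interval -0.42 to 0.02; edgeR adjusted p = 0.387), and it ran from -0.31 without knockdown replicate 2 to -0.13 without knockdown replicate 3.

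**Figure D2:**
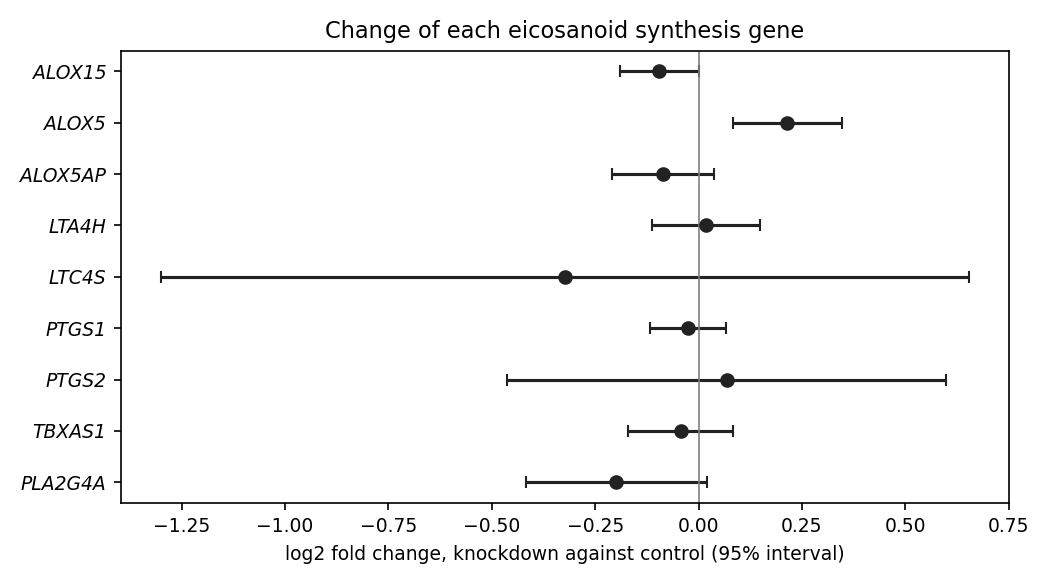
Fitted log2 fold change of each gene, knockdown against control, with its 95% interval as a bar. The ALOX5 interval (0.08 to 0.35) lies above 0 before adjustment over all genes; those of LTC4S and PTGS2, the genes with fewest counts, are the widest.

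Levels were compared between genes as CPM per kilobase of merged exons. PTGS1 was highest at 92.8 CPM per kilobase (mean of 6 libraries), at the 95.4th percentile of 13153 tested genes with a length. ALOX5AP followed at 66.2, ALOX15 at 46.7, LTA4H at 24.4, TBXAS1 at 22.7, ALOX5 at 15.3 and PLA2G4A at 7.67 CPM per kilobase. LTC4S (1.05) and PTGS2 (0.470) stood at the bottom, at the 17.4th and 7.58th percentiles. The ranges over libraries of neighbours in this order overlapped for LTA4H with TBXAS1 and for LTC4S with PTGS2, and were apart for every other neighbouring pair. With the longest transcript as length, a choice made after seeing the data, LTA4H and TBXAS1 changed places and the other 7 kept theirs.

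**Figure D3:**
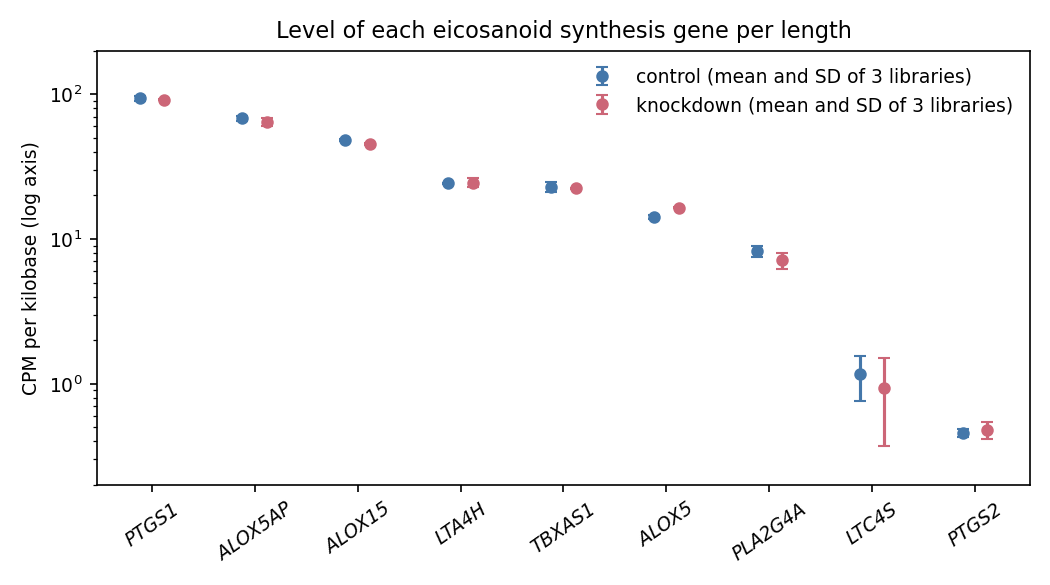
CPM per kilobase of merged exons, on a log axis, for each gene in control and knockdown (mean and SD of 3 libraries each). PTGS1 leads at 92.8 and PTGS2 is last at 0.470 CPM per kilobase.

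Ratios within a library, chosen after the values were seen and therefore given with no test, show the balance between members. The ratio of PTGS1 to PTGS2 per kilobase was 191, 214 and 209 in controls and 164, 206 and 210 in knockdown, overlapping between the groups. ALOX15 to ALOX5 was 3.44, 3.36 and 3.39 in controls and 2.67, 2.77 and 2.77 in knockdown. The ALOX5AP to ALOX5 ratio was 4.88, 4.83 and 4.69 in controls and 4.15, 3.86 and 3.68 in knockdown. Both ratios to ALOX5 were lower in every knockdown library than in any control, and they share ALOX5 as denominator. For ALOX15 to ALOX5 the separation follows from the genes themselves, whose groups lay apart in opposite directions. The groups of ALOX5AP by itself overlapped.

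**Figure D4:**
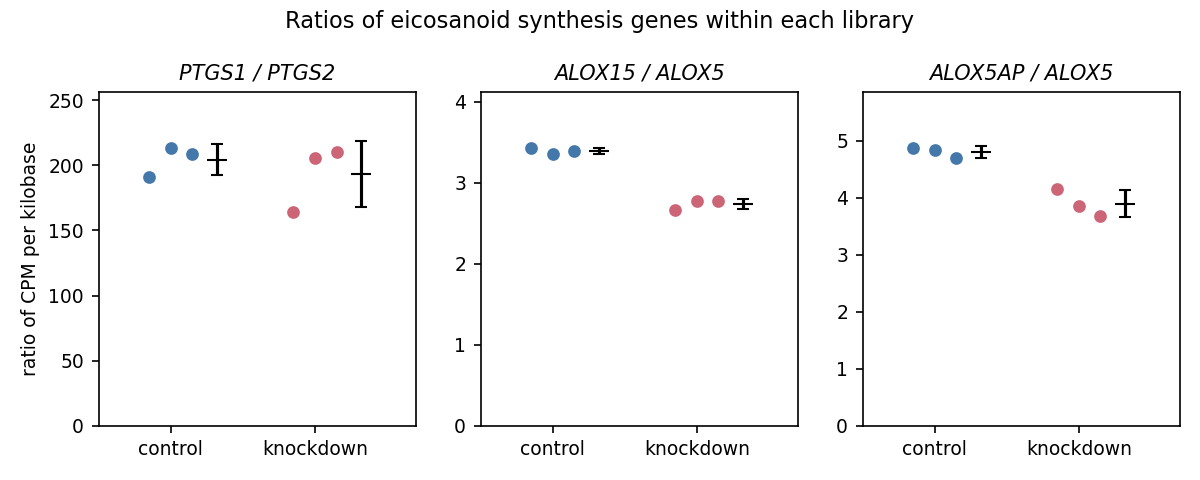
Ratio of CPM per kilobase within each library for 3 pairs of genes, one point a library, with mean and SD; each axis starts at 0. ALOX15 to ALOX5 sits at 3.36 to 3.44 in controls and at 2.67 to 2.77 in knockdown, while the ratios of PTGS1 to PTGS2 overlap.

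The genes whose levels over the 6 libraries were most like those of ALOX5, by Pearson r of log2 CPM among 11969 genes, were MET, CD1E, SUSD6, RASSF5 and EIF4G3. Their r was 0.990 to 0.992, and every one had a higher mean in knockdown, with log2 fold changes of 1.12 (MET), 0.58 (CD1E), 0.15 (SUSD6), 0.21 (RASSF5) and 0.20 (EIF4G3). These r values span both groups and rest on 6 points that share libraries. Genes chosen for likeness to ALOX5, which was higher in every knockdown library, share that direction through the choice itself.

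Further genes of eicosanoid metabolism and signalling were listed by role, 89 genes in 8 lists. Counts were found for 63, of which 2 carry an older symbol, and 56 passed the filter. One of the 56 was called (1.79%, against 2.83% of all genes): ACSL5, an acyl-CoA synthetase that activates long-chain fatty acids, fell. No gene of the 56 rose. The median log2 fold change was -0.02. Of the 56, 13 had an unadjusted edgeR p under 0.05, 4 above and 9 below 0. Over all 13405 genes 2025 did, 924 above and 1101 below 0. In 13 of the 56 the groups did not overlap (23.2%, against 20.0% of all genes), 3 higher and 10 lower in knockdown. The 4 further lipoxygenases listed (ALOX12, ALOX12B, ALOX15B and ALOXE3) were not analysed here.

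In arachidonate release and reacylation, ACSL5 was the single call among 17 tested. It had 59.7, 55.1 and 50.7 CPM in controls and 43.5, 44.7 and 43.8 CPM in knockdown, so that the groups lay apart. Its log2 fold change was -0.33 ± 0.07 (SE; interval -0.47 to -0.19; edgeR adjusted p = 0.0130). The call was lost without control replicate 2 (adjusted p = 0.0710) or without knockdown replicate 1, 2 or 3 (0.0642, 0.0713 and 0.0737). The most abundant genes of the list were ACSL4, which favours arachidonate (305 ± 13.5 and 332 ± 13.4 CPM; log2 fold change 0.12), and ABHD12, a lysophospholipid lipase (288 ± 3.12 and 267 ± 9.82 CPM; -0.11; SD, n = 3 each). PLA2G7, the platelet-activating factor acetylhydrolase, named after its values were seen, had 247, 218 and 205 CPM in controls and 200, 197 and 189 CPM in knockdown. Its log2 fold change was -0.19 (edgeR adjusted p = 0.108).

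In the remaining lists no gene was called. Arachidonate synthesis had 3 genes tested, among them the elongase ELOVL5 (log2 fold change 0.13) and the desaturase FADS1 (-0.00035), at 224 and 223 CPM in the controls and 246 and 223 CPM in knockdown. ELOVL5 had 231, 213 and 229 CPM in controls and 251, 240 and 246 CPM in knockdown. Its groups lay apart (edgeR adjusted p = 0.166). Leukotriene processing and breakdown had 6, with the transpeptidase GGT1 at -0.03 and the microsomal glutathione transferase MGST1 at -0.15. GGT1 has near-identical copies that share its reads, so its counts are uncertain. MGST1 had 88.2, 85.8 and 83.8 CPM in controls and 77.8, 77.0 and 77.0 CPM in knockdown, groups that lay apart (edgeR adjusted p = 0.126).

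Prostanoid synthases and reductases had 6 genes tested, led by the prostaglandin E synthases PTGES3 (220 and 214 CPM; log2 fold change -0.04) and PTGES2 (54.7 and 51.0 CPM; -0.10). PTGES3 has pseudogenes of near-identical sequence, so its counts are uncertain. Prostanoid breakdown and transport had 6, led by the exporter ABCC1, which carries leukotriene C4 (log2 fold change 0.03), and SLCO3A1 (-0.05). Epoxygenases and epoxide hydrolases had 4, led by CYP1B1 (-0.07) and the microsomal epoxide hydrolase EPHX1 (-0.23). EPHX1 had 34.5, 33.3 and 34.9 CPM in controls and 31.1, 29.3 and 27.3 CPM in knockdown, again apart (edgeR adjusted p = 0.119). The groups of CYP1B1, PTGES2 and, among the genes above, ABHD12 also lay apart, lower in knockdown, with no call.

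Among receptors, 14 were tested. GPR183, the oxysterol receptor, had means of 302 and 280 CPM (log2 fold change -0.11), and PTGER4, the EP4 receptor for prostaglandin E2, of 100.0 and 95.4 CPM (-0.07). The EP4 groups overlapped, with 103, 99.2 and 97.8 CPM in controls and 95.7, 99.1 and 91.3 CPM in knockdown. The largest absolute log2 fold change of the wider lists, -0.91 in CMKLR1, the chemerin receptor, rested on 0.937 CPM in knockdown and 1.74 CPM in controls (edgeR adjusted p = 0.167).

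**Figure D5:**
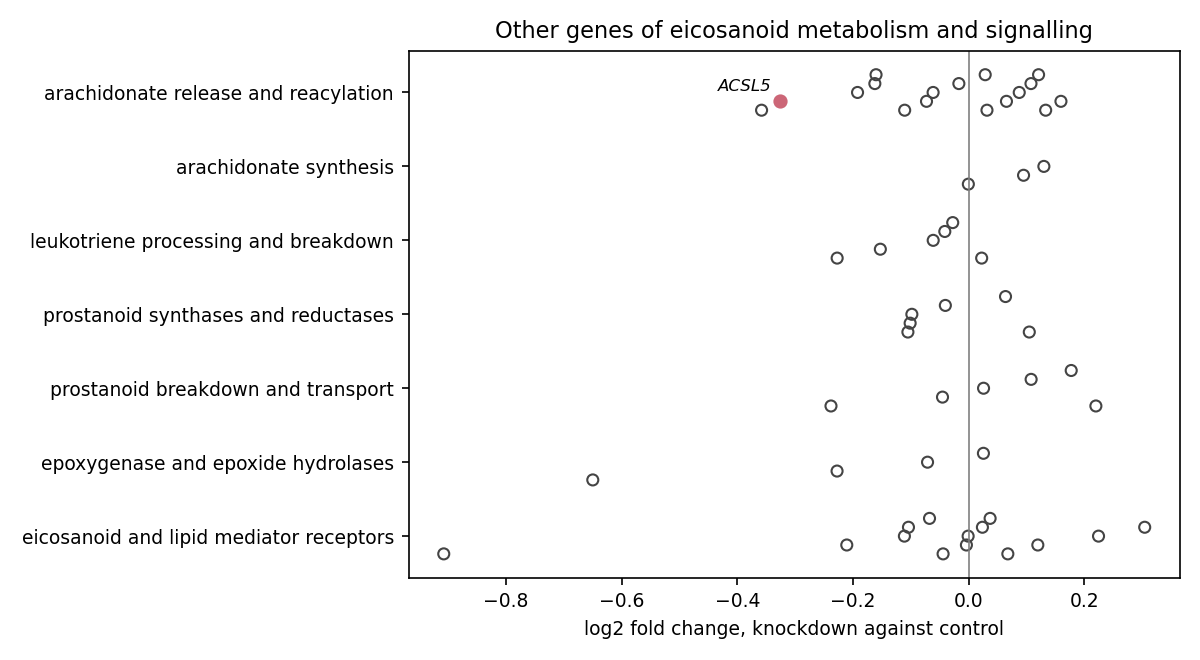
Log2 fold change, knockdown against control, of the 56 further genes tested, one point a gene, by role; the filled point passed an adjusted p of 0.05. ACSL5 at -0.33 is the filled point, and the medians of the lists lie between -0.15 and 0.10.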

How the data were processed

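Polyadenylated RNA was sequenced from 3 control and 3 knockdown libraries, grouped by title. The values deposited by the authors are estimated counts per gene symbol, given as whole numbers. Salmon 0.11.2, DESeq2 and hg38 are named, with no roles, per the submitters' processing notes; rounding and strand use are not given in the sources used here. The lowest row sum is 10, so scarcer genes were not analysed here. The deposited counts of genes that passed the filter on low counts entered the fit unchanged.

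The two-sided quasi-likelihood test of edgeR 4.0.16 was fitted with group alone, after filterByExpr and TMM scaling, and p-values were adjusted by Benjamini-Hochberg over 13405 genes (threshold 0.05). A standard error is the log2 fold change divided by the square root of F, and 95% intervals use the fit's degrees of freedom; both are approximations and intervals are not adjusted. CPM uses TMM library sizes. Totals of 10450043 to 14181343 counts make 3 counts, the floor for a library at 0, 0.210 to 0.289 CPM. Positions and lengths came from GENCODE 29 (GRCh38), windows before start sites from RefSeq (GRCh38.p14). Older symbols were matched through RefSeq synonyms. Alternatives used DESeq2 1.42.0, limma 3.58.1, R 4.3.3 and Python 3.11.15.

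Members and lists were chosen with earlier results of these data known. Named genes were all members; of each further list, the genes past the threshold and up to 2 with the highest mean CPM; and the 5 genes most like the member with the smallest p, among genes whose mean log2 CPM reached 1. No duplicate libraries were found (chi-square per degree of freedom 1.90 to 6.79 within groups). Control pairs gave 2.79 to 6.79, the highest for replicates 1 and 3, and knockdown pairs 1.90 to 2.28.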

Additional observations from a re-analysis of the deposited data

How the results depend on the processing

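Over 13 alternative fits of the 9 eicosanoid genes (DESeq2, limma-voom, RLE and upper-quartile factors, no filter, at least 1 CPM in at least 3 libraries, the replicate number as a block, and each of the 6 libraries left out), no gene passed the threshold in any, and 111 of 115 fold changes kept their direction (DESeq2 gave no adjusted p for LTC4S and PTGS2). The 4 that changed sign came with 1 library left out, in genes near 0 or with few counts: log2 fold changes then ran from -0.040 to 0.057 for LTA4H, -0.83 to 0.020 for LTC4S, -0.043 to 0.0084 for PTGS1 and -0.046 to 0.13 for PTGS2. Over all genes 163 rose and 216 fell, and with 1 library left out 55 to 214 rose and 84 to 328 fell. In the wider lists 0 to 1 rose and 0 to 2 fell with 1 library left out: without control replicate 1 ACSL4 rose (0.16) and MBOAT7 fell (-0.22) besides ACSL5, and without control replicate 3 PLA2G7 fell (-0.25) besides ACSL5. FADS1, at -0.00035, turned positive with DESeq2 (0.0023), RLE (0.0028), upper-quartile factors (0.0041), no filter (0.00034) and the CPM filter (8.01e-05), and ran from -0.016 to 0.025 with 1 library left out, where GGT1 ran from -0.059 to 0.015 and ABCC1 from -0.0059 to 0.056. The cause of these changes was not tested.

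The labels do not say that equal replicate numbers share a culture, and deviations of same-numbered libraries from their group means correlated at 0.05, 0.10 and 0.08, each library best with its own number, which is a hint from the data and not the design. With the replicate block, 2 wider pathway genes fell in place of 1, PLA2G7 (-0.19, adjusted p = 0.0406) beside ACSL5, and no member was called. Depth limits LTC4S, at 4 to 15 counts a library, and PTGS2, at 22 to 31.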
